A study of Ovis aries with 6 samples.

Results

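TYR, ASIP and MC5R are the genes of pigment formation and melanocortin signalling taken here, and they are 3 of the 476 genes that could be named on a sheep expression array, with 5 of its 15008 non-control probes. They were found by matching the RefSeq mRNA given for each probe: NM_001130027 (TYR) had 2 probes, NM_001134303 (ASIP) had 2, and NM_001078656 (MC5R) had 1, which was printed in 5 spots on every array. RNA was taken from skin cut through its full depth in Aohan fine wool sheep of 12 months. There were 3 samples of wool-bearing skin (body side) and 3 of skin without wool (groin), and both sites were sampled in the same animals, 1 ram and 2 ewes by the same father, of which the labels match the ram alone between sites. The labels name no treatment, coat colour or genotype at any gene. Each sample was hybridised alone, with the dye Cy3, to 1 array, and the series title names wool in its growth phase as the subject of the comparison.

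Tyrosinase, the product of TYR, catalyses the first and rate-limiting step of melanin synthesis and is made by melanocytes. Agouti signalling protein, the product of ASIP, is secreted by cells of the dermal papilla in mice and blocks the melanocortin receptor MC1R on melanocytes, which shifts or stops pigment production. In many white sheep breeds ASIP lies in a tandem duplication that also takes in its neighbour AHCY and the promoter of ITCH. MC5R is a related receptor for melanocortin peptides, and in mice it is needed for normal sebaceous lipid output. The gene table used for naming gives MC1R as a synonym of this sheep MC5R entry, but it also holds a separate MC1R gene, to which no probe matched.

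Before any scaling, the signals fell into 2 patterns. The processed signal, the intensity of a spot after correction for background and for trends across the array, overlapped between the sites for both TYR probes and was 1.16-fold higher on the body side, without overlap, for ASIP probe A_70_P027461. It was far lower on the body side for ASIP probe A_70_P027462 and for MC5R. The background-subtracted signals of A_70_P027461, before the correction for trends, overlapped between the sites. Whole arrays differed as well, with 75th percentiles of signal at 1103, 2048 and 1131 on the body side, against 3677, 4171 and 4401 in the groin (log2 difference -1.57, two-sided exact permutation p = 0.1, the lowest value open to 3 arrays per site). The body side arrays shared a scan and the groin arrays another, so for every value below scan and site cannot be told apart.

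**Figure D1:**
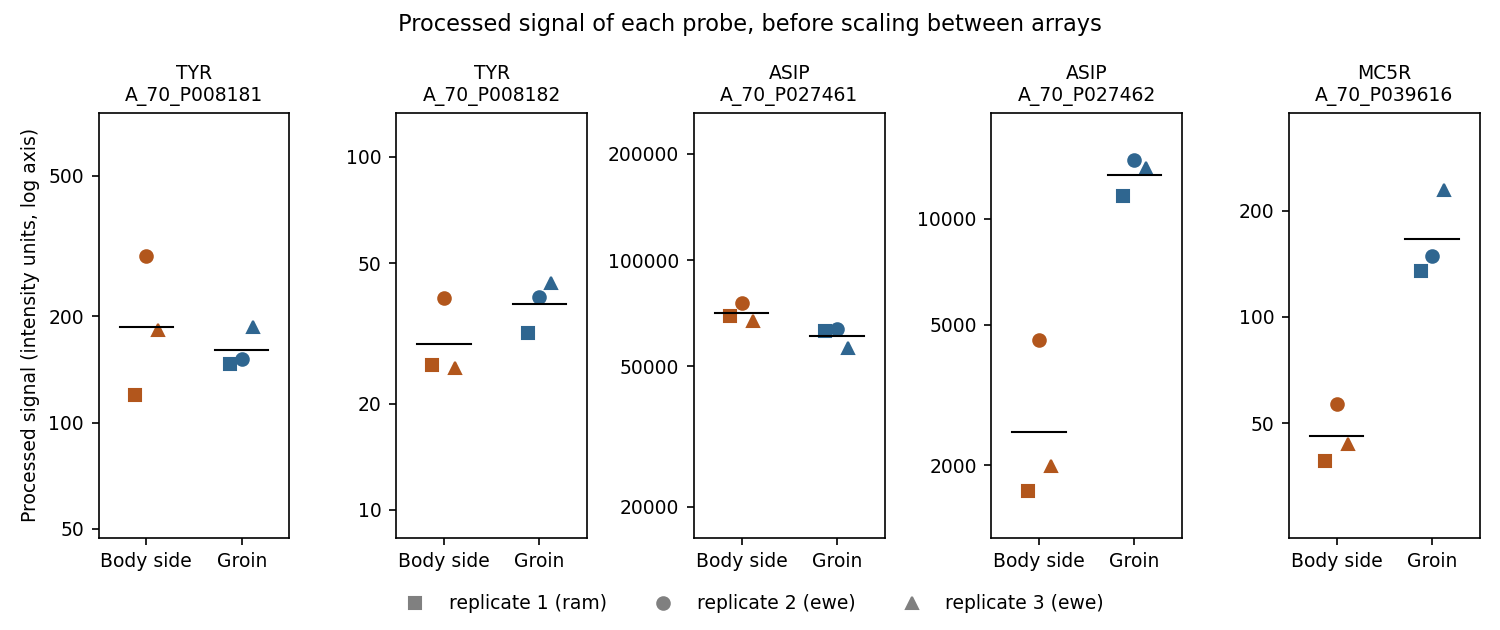
Processed signal (intensity units, log axes that each span a 16-fold range) of the 5 probes, with a point for each of the 3 arrays per site and a line at their geometric mean. Body side and groin points share a range for both TYR probes, whereas ASIP A_70_P027462 and MC5R lie lower on all 3 body side arrays.

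Levels below are therefore given on a log2 scale relative to the 75th percentile of the same array, called the scaled level. On that scale 3 of the 5 probes rose on the body side, 1 fell and MC5R did not pass the test (limma adjusted p under 0.05 over 13278 tested probes). The background for these counts is high, since 69.9% of all tested probes passed, 37.0% as higher and 32.8% as lower, and the arrays of the sites did not overlap for 75.2%. The median difference of all tested probes was 0.10 on the log2 scale. Because the RNA is from whole skin, fewer cells of a type and less RNA per cell cannot be told apart.

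TYR rose on the body side by both of its probes. Probe A_70_P008181 had scaled levels of -3.20, -2.79 and -2.63 on the body side, against -4.65, -4.78 and -4.56 in the groin. Every body side array lay above every groin array. TYR averaged -2.87 ± 0.30 in body side skin and -4.66 ± 0.11 in groin skin (SD, n = 3 each), a 3.46-fold higher level (log2 difference 1.79 ± 0.20 SE, limma adjusted p = 1.29e-04).

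The other TYR probe, A_70_P008182, was dimmer and close to background. Its scaled levels were -5.42, -5.68 and -5.49 on the body side, against -6.86, -6.70 and -6.64 in the groin. These again did not overlap, with a 2.30-fold higher level on the body side (log2 difference 1.20 ± 0.16 SE, limma adjusted p = 3.56e-04). Its processed signals were only 25.8, 39.9 and 25.2 on the body side, against 31.6, 40.2 and 44.0 in the groin. It was well above background on 2 of 3 body side arrays and on all 3 groin arrays, and the scanner software's own error came to between 12.8% and 27.8% of the signal on the body side and between 13.3% and 19.3% in the groin.

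Neither TYR rise was present before scaling. The unscaled signals of A_70_P008181 were 119.8, 297 and 183 on the body side, against 147, 151 and 187 in the groin. Body side replicate 2 was the highest of the 6 arrays and body side replicate 1 the lowest, so the groups overlapped fully (log2 difference 0.22, two-sided exact permutation p = 0.8). For A_70_P008182 the unscaled log2 difference was -0.37 (two-sided exact permutation p = 0.2). The rank within the array did differ: A_70_P008181 stood at percentiles 45.0, 49.4 and 51.2 of all probes on the body side arrays, against 27.2, 25.5 and 26.5 in the groin. A_70_P008182 stood at 23.2, 18.8 and 19.8 on the body side, against 10.8, 11.9 and 10.9 in the groin. The rank does not depend on any rescaling of a whole array, and for both probes the sites did not overlap (two-sided exact permutation p = 0.1 for each, the lowest possible).

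The probes of ASIP were called in opposite directions. By A_70_P027461 the agouti signal rose, with scaled levels of 5.98, 5.20 and 5.89 on the body side, against 4.10, 3.94 and 3.68 in the groin. It averaged 5.69 ± 0.42 in body side skin and 3.91 ± 0.21 in groin skin (SD, n = 3 each), a log2 difference of 1.79 ± 0.24 SE (3.45-fold, limma adjusted p = 3.40e-04). This probe is among the brightest of the array, at percentiles between 97.9 and 98.4 on the body side and between 97.3 and 97.6 in the groin.

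By A_70_P027462 it fell. The scaled levels were 0.62, 1.15 and 0.82 on the body side, against 1.66, 1.82 and 1.67 in the groin, with all 3 body side arrays below all 3 groin arrays. It averaged 0.86 ± 0.27 in body side skin and 1.71 ± 0.09 in groin skin (SD, n = 3 each), a log2 difference of -0.85 ± 0.19 SE, or 1.80-fold higher in the groin (limma adjusted p = 0.00366). With median centring of the arrays the difference was -0.39 and no longer passed (adjusted p = 0.0905, between 2.92e-04 and 0.0905 over the alternatives).

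**Figure D2:**
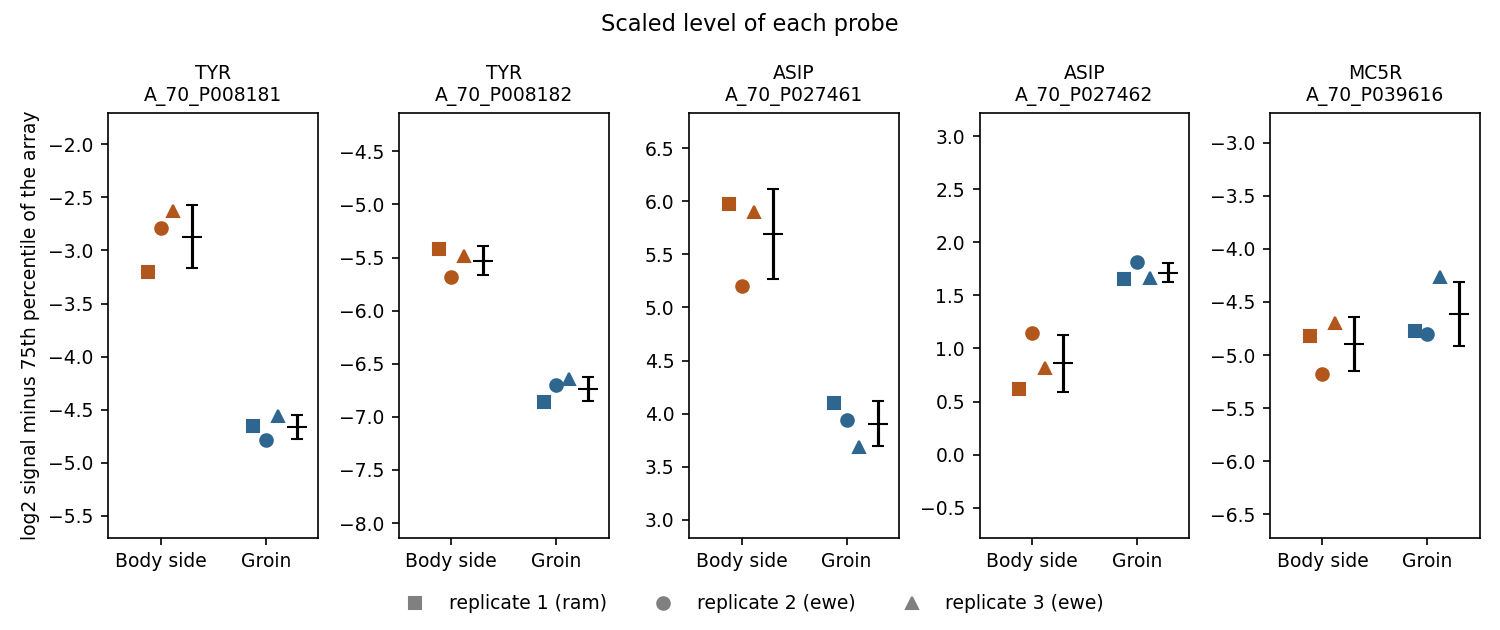
Scaled level (log2 signal relative to the array's 75th percentile) of the 5 probes on each of 3 arrays per site, with the mean and SD beside the points; every axis spans 4 log2 units. Both TYR probes and ASIP A_70_P027461 are higher on all 3 body side arrays, ASIP A_70_P027462 is lower on all 3, and MC5R overlaps.

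The unscaled signals show how the ASIP probes part. A_70_P027461 read 69535, 75509 and 67221 on the body side, against 63079.9, 63848 and 56516 in the groin, a log2 difference of 0.21 that equals 1.16-fold. A_70_P027462 read 1692, 4542 and 1995 on the body side, against 11595, 14690.1 and 13955 in the groin, 5.37-fold higher in the groin. Body side replicate 2 was the highest body side array for both probes, and it was also the brightest body side array. No ASIP spot was saturated or carried an outlier mark, and each was well above background on all 6 arrays. The signal of A_70_P027461 varied little, with an SD of its log2 values of 0.086 for body side arrays and 0.097 for groin arrays. For A_70_P027462 these SDs were 0.76 and 0.18.

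The log2 ratio of the ASIP probes within an array is unchanged by any rescaling of a whole array. It still moved with array brightness. For body side replicates 1, 2 and 3 it was 5.36, 4.06 and 5.07, at 75th percentiles of 1103, 2048 and 1131. For groin replicates 1, 2 and 3 it was 2.44, 2.12 and 2.02, at 3677, 4171 and 4401. Every brighter array thus had a lower ratio. Whether brightness accounts for the site change of this ratio was not tested. A_70_P027461 over A_70_P027462 stood at 4.83 ± 0.69 in body side skin and 2.19 ± 0.22 in groin skin (SD, n = 3 each). The probes therefore differed in their site change by 2.64 on the log2 scale, or 6.22-fold (two-sided exact permutation p = 0.1, the lowest possible, and 0.143 after Benjamini-Hochberg adjustment over the 10 pairs of probes compared). Leaving out arrays moved this value between 2.37 and 3.02, and it was 1.86 after quantile normalization. Which part of the ASIP mRNA each probe reads is not given in the sources used here, so the probes could not be assigned to exons or transcripts.

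Another measurement differed between the ASIP spots. The A_70_P027461 spot was read on the low-gain scan and rescaled on all 6 arrays, and the ratio of its processed to its background-subtracted signal, the step that holds the software's trend correction, was between 1.33 and 1.51 on the body side and between 1.102 and 1.24 in the groin. For A_70_P027462 that ratio lay between 0.874 and 1.02 on the body side and between 0.906 and 0.981 in the groin. The background-subtracted signals of A_70_P027461 were 45962, 56388 and 50627 on the body side, against 57266, 51604 and 48160 in the groin. Without the trend correction the unscaled signals of this probe thus overlapped between the sites. On the scaled level without that correction, A_70_P027461 still rose, by 1.42 (limma adjusted p = 0.00134). A_70_P027462 still fell, by 0.95 (limma adjusted p = 0.00365).

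MC5R, the receptor, was measured by 5 spots per array but did not pass the test. Its scaled levels, averaged over the spots, were -4.82, -5.18 and -4.69 on the body side, against -4.77, -4.81 and -4.26 in the groin, and the sites overlapped. It averaged -4.90 ± 0.25 in body side skin and -4.61 ± 0.30 in groin skin (SD, n = 3 each), a log2 difference of -0.28 ± 0.22 SE (limma adjusted p = 0.267). The 95% interval of the difference ran from -0.78 to 0.21, that is, from 0.582 to 1.16 times the groin level. The sign turned with normexp background correction (0.53) and with median centring (0.17), and neither value passed.

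The spots of the MC5R probe also give the technical spread. They ran from 30.7 to 56.6, from 42.3 to 66.4 and from 38.2 to 48.0 in signal on the 3 body side arrays, against 123 to 159, 137 to 162 and 204 to 261 in the groin. No body side spot reached the dimmest groin spot. The SD of the log2 signal among the 5 spots was 0.37, 0.25 and 0.13 on the body side arrays and 0.14, 0.11 and 0.14 on the groin arrays. Of the 15 body side spots 13 were well above background, and of the 15 groin spots all were. Taken spot by spot, the scaled difference ran from -0.70 to -0.057, so that the sign was the same at all 5 positions, none of which is an independent sample.

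**Figure D3:**
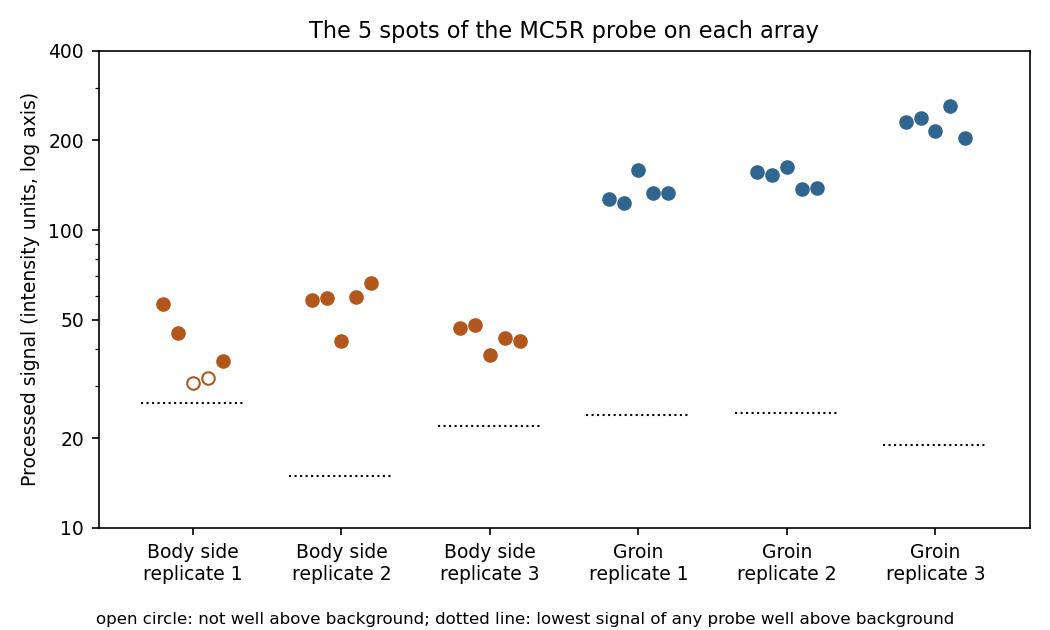
Processed signal (intensity units, log axis) of the 5 spots of the MC5R probe on each array, with open circles for spots not well above background and a dotted line at the lowest signal of any probe well above background on that array. All body side spots lie between 30.7 and 66.4 and all groin spots between 123 and 261.

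Without scaling MC5R was 3.63-fold higher in the groin (log2 difference -1.86), close to the 2.98-fold difference in the 75th percentile of the arrays. Its percentile within the array was 27.8, 23.6 and 27.1 on the body side, against 26.0, 25.3 and 29.0 in the groin (two-sided exact permutation p = 0.8).

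The genes were also compared with each other within each array. The log2 ratio of TYR A_70_P008181 over MC5R within an array was 2.02 ± 0.39 in body side skin and -0.051 ± 0.22 in groin skin (SD, n = 3 each), a change of 2.08. The ratio of TYR A_70_P008182 over MC5R changed by 1.49, and that of ASIP A_70_P027461 over MC5R by 2.07. All 3 had a two-sided exact permutation p of 0.1 and 0.143 after adjustment over the 10 pairs. The ratio of TYR A_70_P008181 over ASIP A_70_P027461 changed by 0.0054 (two-sided exact permutation p = 1), and that of ASIP A_70_P027462 over MC5R by -0.57 (two-sided exact permutation p = 0.2). These changes moved with the processing. With quantile normalization, which bends the scale along the brightness range, the change of TYR A_70_P008181 over ASIP A_70_P027461 was 1.60. The change of ASIP A_70_P027461 over MC5R was 0.59 with quantile normalization, 0.56 with cyclic loess, 0.55 with the authors' deposited log2 values and 1.01 with normexp. That of ASIP A_70_P027462 over MC5R was -1.27, -1.31, -1.41 and -1.33 in the same 4 settings. That of TYR A_70_P008181 over MC5R was 1.26 with normexp.

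The site difference of all probes moved with brightness, and this touches each value above. In 10 equal groups of tested probes by mean scaled level, the median difference was 1.14 in the brightest, where ASIP A_70_P027461 lies, and 0.68 in the ninth, where A_70_P027462 lies. TYR A_70_P008181 was in the third, with a median of -0.11, MC5R in the second (0.067) and TYR A_70_P008182 in the dimmest (-0.40). Relative to these medians, the TYR probes stood 1.90 and 1.61 higher, ASIP A_70_P027461 stood 0.65 higher, and ASIP A_70_P027462 and MC5R stood at -1.53 and -0.35. With quantile normalization the difference of ASIP A_70_P027461 was 0.52, with cyclic loess 0.50 and with the authors' deposited log2 values 0.55, all still past the threshold. The same 3 settings gave -1.34, -1.36 and -1.41 for A_70_P027462.

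**Figure D4:**
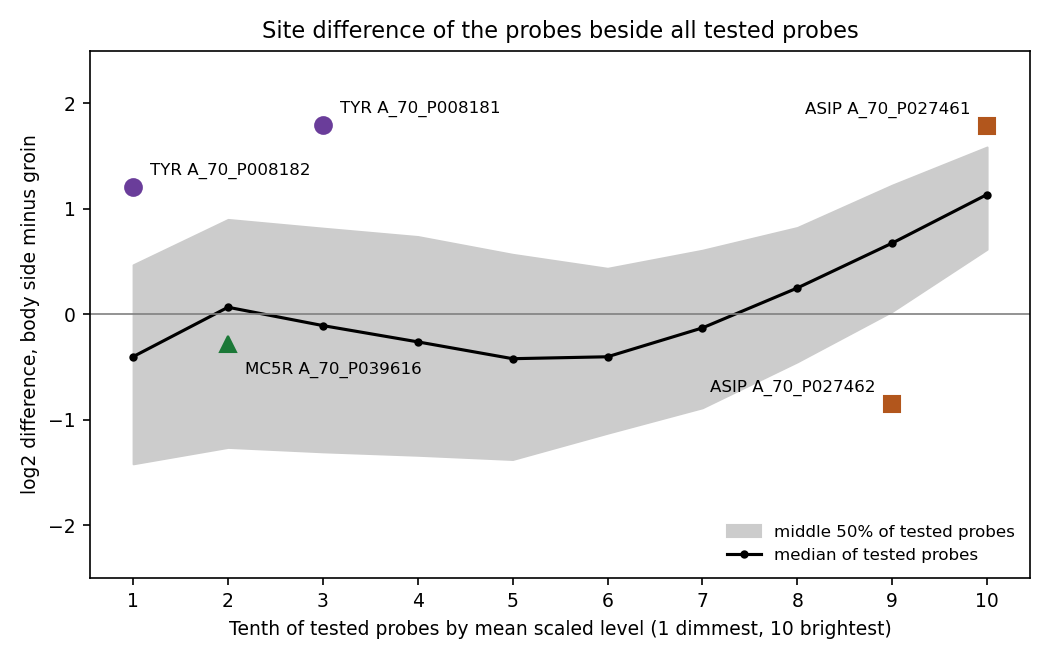
Site difference (log2, body side minus groin) of the 5 probes by brightness group (10 groups of mean scaled level), over the median (line) and middle 50% (band) of all 13278 tested probes. The TYR probes and ASIP A_70_P027462 lie outside the band of their group, ASIP A_70_P027461 lies above a band that is itself raised to a median of 1.14, and MC5R lies inside.

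**Figure D5:**
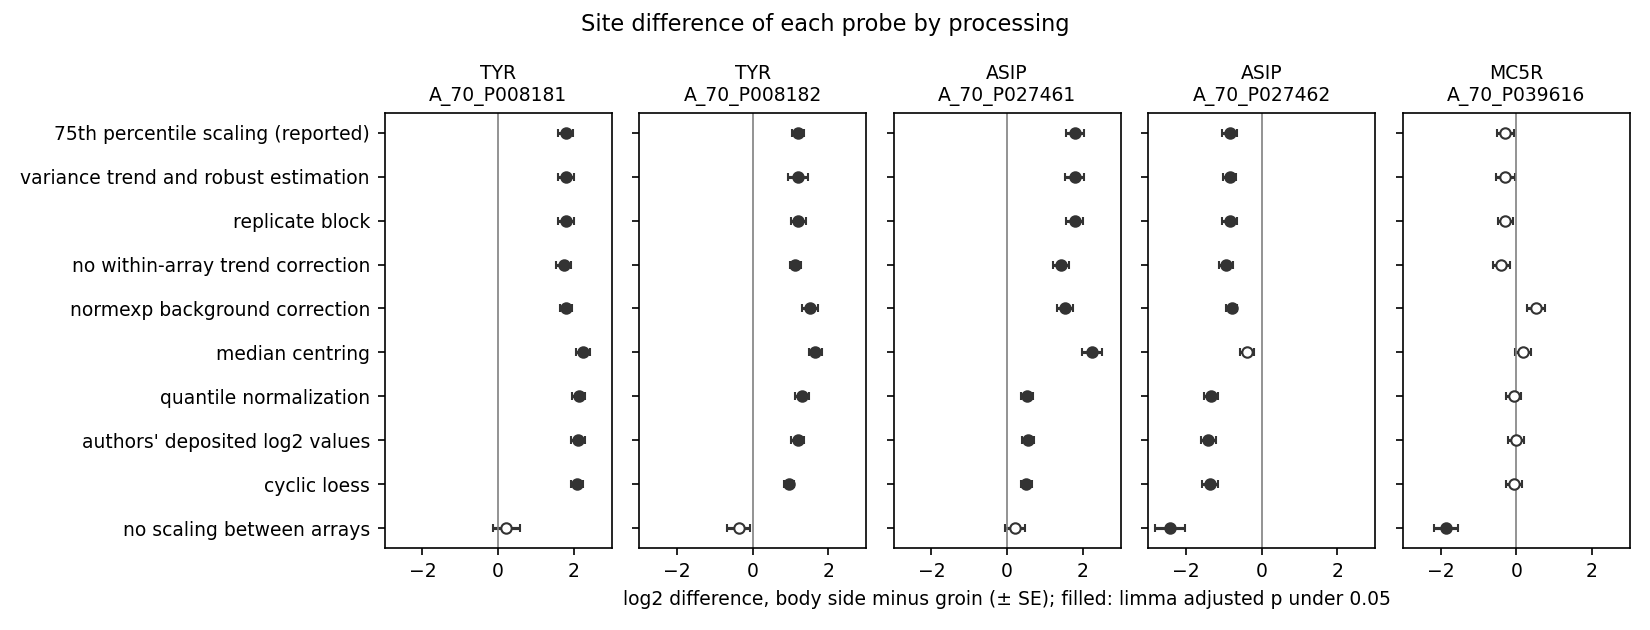
Site difference (log2, body side minus groin, ± SE) of the 5 probes under 10 ways of processing, with filled points where the limma adjusted p was under 0.05. TYR and both ASIP probes keep their direction in every setting drawn except TYR A_70_P008182 without scaling (-0.37), and MC5R moves to both sides of 0.

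Site differences were also taken apart by sex. For TYR A_70_P008181 the site difference was 1.45 in the ram and 1.96 in the ewes, for A_70_P008182 it was 1.44 in the ram and 1.09 in the ewes, and for ASIP A_70_P027461 it was 1.88 in the ram and 1.74 in the ewes. For ASIP A_70_P027462 it was -1.04 in the ram and -0.76 in the ewes, and for MC5R -0.049 in the ram and -0.40 in the ewes. No probe passed the test of that difference (limma interaction of site and sex, adjusted p from 0.929 to 1), where 0.113% of all probes did. With 1 ram the spread rests on the ewes alone.

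Other genes of the pathway were few on the array. Of 15 listed genes of melanin synthesis and the melanosome, TYR alone matched a probe, so TYR was also the only melanocyte marker. None of the listed neighbours of ASIP (AHCY, ITCH, RALY and EIF2S2) matched one. Of 18 melanocortin genes 4 matched and 3 were tested: ASIP rose by its brightest probe, and MC5R and POMC did not pass. POMC, the precursor of the melanocortin peptides, had a log2 difference of -0.15 ± 0.23 SE by its brighter probe and 0.20 ± 0.17 by the other.

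Among 6 tested regulators of melanocytes, 2 rose, 2 fell and 2 did not pass, with a median difference of 0.24. PRKACA, a catalytic subunit of protein kinase A, which acts downstream of melanocortin receptors, rose by 1.44 ± 0.23 SE (limma adjusted p = 7.49e-04) and by 1.05 ± 0.15 with its other probe. EDNRA, an endothelin receptor, rose by 0.91 ± 0.23, but its other probe fell by 1.38 ± 0.21, and without replicate 1 the call on the brighter probe ended (0.62, adjusted p = 0.0522). EDN1, an endothelin, fell by 0.63 ± 0.16 and lost its call with quantile normalization (-0.23), median centring (-0.17), cyclic loess (-0.31) and the deposited values (-0.27), and without replicate 1 or 3. TFAP2A, a transcription factor of melanocytes and keratinocytes, fell by 0.41 ± 0.16, with its other probe at -0.97 ± 0.15. Its brighter probe was at 0.052 with median centring and lost its call without any 1 of the 3 replicates. PRKAR1A, a regulatory subunit of protein kinase A, was at 0.31 ± 0.17 and FGF2, a growth factor for melanocytes, at 0.17 ± 0.17.

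Markers of other structures also differed between the sites, and their part in the results was not tested. Beside the counts below, 37.0% of all tested probes passed as higher and 32.8% as lower. All 8 tested genes of 30 wool fibre and sheath markers rose, with a median difference of 3.34. The 3 with the lowest adjusted p were KRT35 (4.72 ± 0.23 SE), V15 (3.36 ± 0.17) and KRTAP5.4 (4.99 ± 0.29). The summed signal of all 8 genes relative to the 75th percentile was between 589 and 1020 on the body side and between 72.5 and 88.3 in the groin. Of 6 tested dermal papilla genes 2 rose, 2 fell and 2 did not pass (median difference 0.023), with summed signals between 4.50 and 5.74 on the body side and between 1.48 and 1.74 in the groin. Most of that sum on the body side was BMP4, a secreted ligand, at a mean scaled level of 2.26 in body side skin and -0.49 in groin skin, while the other 5 genes averaged -2.79 or less in body side skin and -0.73 or less in groin skin. BMP4 rose by 2.75 ± 0.17 and FGF7, a growth factor, fell by 2.46 ± 0.25. FGF10 and NOG did not pass by their brightest probes. All other tested FGF10 probes were called lower, but no body side array had them well above background. The other NOG probe was called higher (0.87 ± 0.17), with 1 of 3 body side arrays well above background. No body side array had LEPR, the leptin receptor, well above background. Its groin level stood 3.44-fold above the body side's lowest signal of any probe well above background, a reference and not a strict bound. With normexp the call on LEPR ended (-0.36). Of its other tested probes, A_70_P039557 stood 1.24-fold above the same reference in groin skin. A_70_P056811 was at -0.67 ± 0.30 and did not pass.

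For MC5R the gland lists are the nearest. Of 7 tested sebaceous gland and lipid synthesis genes 2 rose, 3 fell and 2 did not pass (median difference 0.12). Their summed signal was between 72.4 and 97.3 on the body side and between 68.5 and 92.2 in the groin. DGAT1, counted as risen by its brighter probe (0.46 ± 0.16 SE), was called lower by its other probe (-0.83 ± 0.19 SE). ACLY, which makes acetyl-CoA for lipid synthesis, fell by 3.56 ± 0.17 SE and PLIN2, a lipid droplet coat protein, by 2.13 ± 0.19. No body side array had SCD, a fatty acid desaturase, well above background. Its groin level stood 24.9-fold above the body side's lowest signal of any probe well above background, again a reference and not a strict bound. With normexp the SCD site difference was -2.52, a smaller fold than that, and with quantile normalization the difference of PLIN2 was -2.86. Of the sweat gland genes AQP5, a water channel, rose by 2.11 ± 0.38 and CFTR, a chloride channel, by 0.62 ± 0.23. CFTR was well above background on 1 of 3 body side arrays, and its arrays overlapped between the sites (two-sided exact permutation p = 0.2).

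Of the adipocyte genes PLIN1 rose (0.62 ± 0.23) and LPL fell (-0.71 ± 0.18), at a median of -0.042, with summed signals between 2.70 and 4.76 on the body side and between 2.11 and 2.40 in the groin. Of the skeletal muscle genes MB (1.86 ± 0.31) and MYL11 (1.01 ± 0.20) rose and TNNC2 fell by 0.71 ± 0.24, at a median of 1.01, with summed signals between 6.92 and 9.22 on the body side and between 3.45 and 4.64 in the groin. The other tested probes of AQP5 (1.11 ± 0.53), PLIN1 (0.085 ± 0.21) and MB (1.04 ± 0.48) did not pass. Without any 1 of the 3 replicates the calls on CFTR (0.51 to 0.74) and PLIN1 (0.35 to 0.77) ended, as did that on LPL without replicate 3 (-0.53) and that on TNNC2 without replicate 1 (-0.52) or 3 (-0.71). With normexp LPL stood at 0.51 and TNNC2 at 0.33. On the body side LPL was well above background on 1 of 3 arrays and TNNC2 on 2 of 3. With quantile normalization, cyclic loess and the deposited values the calls on MYL11 (0.21, 0.22 and 0.21), PLIN1 (0.13, 0.072 and 0.12) and TNNC2 (-0.43, -0.46 and -0.42) ended. The call on LPL ended with quantile normalization (-0.52), median centring (-0.25) and the deposited values (-0.51), that on TNNC2 also with median centring (-0.25), and that on CFTR with cyclic loess (0.35).

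The named genes whose pattern over the 6 arrays came nearest were found by the root mean square difference between centred scaled levels. For TYR A_70_P008181 these were PADI3 (0.224), H2AZ1 (0.227) and RTP4 (0.228), with site differences of 1.51, 1.46 and 1.54. For TYR A_70_P008182 they were BSP5 (0.048), MMP13 (0.065) and IL2 (0.090), with differences of 1.19, 1.17 and 1.099. For ASIP A_70_P027461 they were both TIMP1 probes (0.061 and 0.097) and RAC1 (0.106), with differences of 1.86, 1.89 and 1.66. For ASIP A_70_P027462 they were YBX1 (0.068), SHMT1 (0.068) and CALM2 (0.081), with differences of -0.88, -0.89 and -0.93. For MC5R they were ABCB1 (0.111), CD1D (0.122) and ARAF (0.141), with differences of -0.46, -0.14 and -0.11, of which none passed the test. All of these share the arrays and their scaling, and 645 or 646 probes were compared for each.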

How the data were processed

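Per the labels' protocols, total RNA was linearly amplified and labelled with Cy3, and every sample had its own array. Per the file headers, the deposited intensity values were made by Agilent's Feature Extraction software, version 10.5.1.1: its processed signal has background and spatial trends removed array by array, with no step between arrays. A second deposited set holds log2 values that the authors put on a common scale (all columns have a median of 8.31) by a method not given in the sources used here. Between 6 and 51 of 15208 non-control spots per array carried an outlier flag and were left out, and none was saturated.

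Main values were log2 processed signals minus the 75th percentile of the array, with spots of a probe averaged. A probe was well above background where more than 50% of its spots were, and was tested where this held on all 3 arrays of at least 1 site. Each difference is body side minus groin, fitted with lmFit and eBayes of limma 3.58.1 (R 4.3.3), with Benjamini-Hochberg adjustment at 0.05 over 13278 probes; the script was tested on simulated data. The number of arrays limits the precision. Where no array of a site had a probe well above background, the fold is taken against the lowest such signal there. It is not a strict bound, since some spots above that signal were not well above background.

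Names came from RefSeq accessions in a gene table of the assembly ARS-UI_Ramb_v3.0 (734 of 15008 probes matched); the files name no build, so no coordinates are given. Named genes were all members, all tested genes of the pigment lists, up to 3 genes of each marker list by adjusted p (1 sweat gland gene is not reported here, nor that list's counts), and the 3 nearest probes to each member probe; the brightest tested probe stands for other genes. The members and lists were chosen with earlier results of these data known. Both sites came from the same 3 animals; replicate 1 is the ram at both, and the labels do not say which ewe is 2 or 3. Arrays were not treated as pairs. Deviations of same-numbered arrays from their site means correlated at 0.159 for the ram, and at 0.0886 and -0.0877 for the ewes by number. With the ewe numbers swapped the values were 0.164 (body side 2, groin 3) and -0.016 (body side 3, groin 2). These values cannot settle which ewe is which. Alternatives were normexp background correction (offset 50, on spot median signals, since the files used here hold no spot means), quantile normalization, median centring, cyclic loess, no scaling, the deposited values, other filters, a variance trend, a replicate block and leave-outs. One without the trend correction was chosen after seeing the data.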

Additional observations from a re-analysis of the deposited data

How the results depend on the processing

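Site and scan cannot be told apart, and 3 arrays per site limit precision. MC5R lies near background on the body side, and TYR A_70_P008182 does so at both sites. Without scaling, TYR A_70_P008181 (0.22) and ASIP A_70_P027461 (0.21) lost their calls, TYR A_70_P008182 stood at -0.37 and MC5R passed at -1.86; over all tested probes 190 were higher and 9412 lower, with a median difference of -1.47. With median centring ASIP A_70_P027462 lost its call (-0.39) and MC5R was at 0.17; with normexp MC5R was at 0.53. These 2 settings moved the median of all probes to 0.56 and 0.46 and the share of higher calls to 68.5% and 68.6%, against 53% as reported. The cause was not tested. TYR A_70_P008182 has no value where only probes well above background on all 6 arrays were kept. Leaving out arrays kept all 4 calls on TYR and ASIP, with differences of 1.67 to 1.96, 1.09 to 1.30, 1.57 to 2.04 and -0.99 to -0.73, and MC5R at -0.40 to -0.11. With the replicate block all 5 calls were as reported (for MC5R, limma adjusted p = 0.220), with 4869 probes higher and 4342 lower. Without replicate 3, 3315 probes were higher and 3249 lower.

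The contrast of ram and ewes for ASIP A_70_P027461 was -0.15 with normexp. The ratio of TYR A_70_P008182 over ASIP A_70_P027461 changed by 0.78 with quantile normalization, 0.47 with cyclic loess and 0.64 with the deposited values, and that of TYR A_70_P008181 over ASIP A_70_P027461 by -0.36 to 0.31 when arrays were left out. In the order normexp, quantile, median centring, cyclic loess and deposited values, POMC was at 0.22, 0.27, 0.30, 0.19 and 0.26 (-0.30 to 0.094 without 1 replicate number), CD1D at 0.31, 0.26, 0.32, 0.19 and 0.25, and ARAF at 0.60, 0.16, 0.35, 0.17 and 0.15. PRKAR1A was at -0.33 with quantile, -0.35 with loess, -0.36 with the deposited values and -1.27 unscaled. FGF2 passed with these same 5 settings (0.48 to 0.62), PRKAR1A with median centring (0.76), and TFAP2A was at 0.052 with median centring. With normexp LPL was at 0.51, TNNC2 at 0.33 and ABCB1 at 0.20. Other signs turned without scaling: EDNRA (-0.66), PRKACA (-0.13), FGF2 (-1.41), CFTR (-0.96), PLIN1 (-0.95), MYL11 (-0.56), PADI3 (-0.063), H2AZ1 (-0.11), RTP4 (-0.030), BSP5 (-0.39), MMP13 (-0.40) and IL2 (-0.48).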

Other observations

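MC2R, the receptor for adrenocorticotropic hormone and the neighbour of MC5R in the gene table, had 1 probe that was well above background on no array. Its signals were 6.64, 10.1 and 7.65 on the body side, against 5.28, 15.5 and 10.6 in the groin, all under the lowest signal of any probe well above background on the same array, which was between 14.9 and 26.2 on the body side and between 19.1 and 24.3 in the groin.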
